A study of Mus musculus with 12 samples.

Results

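Genes that respond to temperature were followed in the hypothalamus of mouse pups at postnatal day 6. The set held 10 genes listed by name, with no cutoff on a measured value but with earlier results of these data known: the cold-inducible RNA-binding genes Cirbp and Rbm3, and the heat shock genes Hspa1a, Hspa1b, Hspa8, Hspb1, Dnajb1, Hsph1, Hspd1 and Hspe1. All 10 were among the 43280 rows of the count table, and 9 of them had enough counts to be tested, as did 13104 rows in all. Pups of strain C57/Bl6, all male, were either controls (6 libraries) or exposed to modified maternal separation (MMS, 6 libraries), and RNA came from the whole dissected hypothalamus. Per the study's methods, MMS combined daily time out of the nest, in a separate room with warming from a heating pad, with a handling stress in which the righting of the pup was repeatedly undone. Tissue was taken directly after the last session. Controls were males of the same litters, but the study picked 6 samples per group at random for sequencing. Sequenced pups of the groups need not share litters, and no label ties a library to its litter, so the tests were unpaired. They set the group difference against the spread among pups, with litter differences left in it. Body temperature was not analysed here.

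Heat shock genes encode chaperones, which hold or refold other proteins. Their transcription is driven by the heat shock factor HSF1, which binds repeats of the letters GAA and TTC in their promoters when unfolded proteins accumulate, as after heat. Cirbp and Rbm3 respond the other way. Mild cooling raises them and warming lowers them, and they bind other RNAs and support their translation. Newborn rodents hold body temperature poorly outside the nest.

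The libraries held between 3218777 and 6560620 counts each and differed in places by more than the group. Hypothalamic markers were present throughout, with at least 18 counts per library for Pomc, 163 for Hcrt, 415 for Avp, 669 for Oxt and 814 for Pmch, whereas Agrp had 0 counts in 1 library and Kiss1 in all 12. On the first principal component, which took 30.4% of the variance, MMS 2 (57.8) and MMS 4 (46.3) lay apart from the remaining 10 libraries (-14.4 to -3.04). These libraries also had little of the 15 ependymal cilia markers, at a summed level of 24.7 CPM in MMS 2 and 48.1 CPM in MMS 4 against 106 to 230 CPM in controls. CPM are counts after scaling every library to a common total. The 8 neuronal markers summed to 8960 and 8993 CPM in MMS 2 and MMS 4 and to 10860 to 12110 CPM in controls. Control 3 stood apart in the choroid plexus transcript Ttr (1735 CPM, against at most 35.5 CPM elsewhere). The 8 meningeal markers summed to 195 CPM in MMS 2 and 162 CPM in MMS 4, below every control (212 to 432 CPM), and all 7 tested had lower means in MMS. The 5 red blood cell markers all had lower means in MMS, and their sum in MMS 4 (757 CPM) lay below the lowest control (849.7 CPM). In all of these lists the highest MMS library exceeded the lowest control, and the lowest meningeal sum (91.6 CPM) was that of another MMS library. In MMS 2 and MMS 4, summed markers of hypothalamus, blood vessels and microglia lay inside the control range. Oligodendrocyte markers summed to 1206 CPM in MMS 2, above the highest control (1184 CPM), and to 1143 CPM in MMS 4. Astrocyte markers summed to 2017 CPM in MMS 4, above the highest control (1990 CPM), and to 1948 CPM in MMS 2. Log2 fold changes and medians of the set are therefore given with and without MMS 2 and MMS 4, and the part of these tissue differences in the results was not tested.

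Promoter sequence was at hand for 8 of the 10 genes, and the windows below show where the heat shock factor's letters lie in genes whose levels are compared later. Each window runs from 250 bases before to 50 bases after a transcription start site annotated by RefSeq (build GRCm38.p6), 5′ to 3′ on the strand of the gene. Capitals mark the heat shock element, GAANNTTC or TTCNNGAA, each of which reads the same on both strands, and in Cirbp the letters TCCCCGCC, known as a mild-cold-responsive element. Windows with at least 1 heat shock element made up 15.1% of all 32851 promoter windows. The three-unit form, GAANNTTCNNGAA or TTCNNGAANNTTC, which contains overlapping two-unit forms, was in 0.603% of them, and TCCCCGCC or its complement GGCGGGGA in 5.38%.

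Hspa1a, the major inducible HSP70, chr17:34972107-34972406, minus strand, with a heat shock element from position -104 relative to the start site:
Hspa1a: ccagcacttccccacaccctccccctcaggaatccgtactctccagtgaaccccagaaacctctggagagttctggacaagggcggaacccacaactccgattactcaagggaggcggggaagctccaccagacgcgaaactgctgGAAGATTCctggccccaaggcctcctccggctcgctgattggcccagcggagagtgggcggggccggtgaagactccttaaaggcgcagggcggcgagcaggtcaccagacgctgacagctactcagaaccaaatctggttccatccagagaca
Hspe1, the mitochondrial co-chaperonin, chr1:55087898-55088197, plus strand, with an unbroken run of 3 overlapping heat shock elements from position -89:
Hspe1: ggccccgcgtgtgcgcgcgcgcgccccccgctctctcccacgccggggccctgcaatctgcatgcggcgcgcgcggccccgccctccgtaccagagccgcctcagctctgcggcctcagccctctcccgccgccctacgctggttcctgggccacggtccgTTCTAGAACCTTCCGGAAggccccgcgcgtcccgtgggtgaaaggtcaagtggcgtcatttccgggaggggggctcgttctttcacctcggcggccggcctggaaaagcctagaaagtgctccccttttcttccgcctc
Hsph1, the large HSP70 relative HSP105, chr5:149636287-149636586, minus strand, with a three-unit element at position 36, downstream of the start site, and a two-unit element at position -33:
Hsph1: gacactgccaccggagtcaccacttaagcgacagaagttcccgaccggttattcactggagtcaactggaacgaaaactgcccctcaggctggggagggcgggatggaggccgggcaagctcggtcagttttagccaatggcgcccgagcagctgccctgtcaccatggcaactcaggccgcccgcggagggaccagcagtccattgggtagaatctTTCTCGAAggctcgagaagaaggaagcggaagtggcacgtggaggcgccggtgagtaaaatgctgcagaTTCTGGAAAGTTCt
Dnajb1, the main HSP40 partner of HSP70, chr8:83607925-83608224, plus strand, without these letters in the window:
Dnajb1: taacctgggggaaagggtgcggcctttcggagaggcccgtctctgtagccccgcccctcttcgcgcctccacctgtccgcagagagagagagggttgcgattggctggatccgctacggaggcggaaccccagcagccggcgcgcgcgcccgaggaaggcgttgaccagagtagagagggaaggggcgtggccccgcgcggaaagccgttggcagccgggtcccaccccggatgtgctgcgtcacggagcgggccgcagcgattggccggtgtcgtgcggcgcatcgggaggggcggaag
Cirbp, the cold-inducible RNA-binding protein, chr10:80167589-80167888, plus strand, with TCCCCGCC from position -247:
Cirbp: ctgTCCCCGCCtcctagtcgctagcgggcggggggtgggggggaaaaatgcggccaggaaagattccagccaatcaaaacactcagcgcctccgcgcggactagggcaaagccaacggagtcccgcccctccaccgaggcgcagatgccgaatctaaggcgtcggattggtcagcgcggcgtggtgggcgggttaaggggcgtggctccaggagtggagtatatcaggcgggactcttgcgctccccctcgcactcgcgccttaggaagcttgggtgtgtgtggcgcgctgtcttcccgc

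Of the 8 genes with a window, 6 had at least 1 two-unit element and 3 had a three-unit element (Hsph1, Hspd1 and Hspe1). These genes had 12 windows in all, so counts of genes are not directly comparable with the shares of windows above. The run in the Hspe1 window is shared with Hspd1, its partner in the mitochondrial chaperonin. The genes lie head to head on chromosome 1, Hspd1 on the minus strand and Hspe1 on the plus strand, and their outermost starts overlap by 112 bases. The same letters stood at position -144 of an annotated Hspd1 start that lies inside the gene. The window of the outermost Hspd1 start held no heat shock element. Hspa1b, whose 3′ end lies 12754 bases from that of Hspa1a, carried its element at the same position relative to its start site as Hspa1a. The letters TCCCCGCC or their complement were also found at position -137 of Hspa1a and Hspa1b and in a further Dnajb1 window, so they did not set Cirbp apart. A match of letters is not a measured binding site.

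The first comparison asked whether these genes differed between MMS and control pups. None of the 9 tested genes passed a false discovery rate of 0.05 in edgeR, where the share of all tested genes was 0%, nor did any in DESeq2 or limma-voom. At an unadjusted p under 0.05 there were 3, Dnajb1, Hspe1 and Cirbp, all higher in MMS, against 9.08% of all tested genes in either direction and 4.68% with higher levels in MMS. Without MMS 2 and MMS 4 there were 0 such members, against 5.03% of genes. Means were higher in MMS for 8 tested members and lower for Hspa8, and the median log2 fold change was 0.18 (0.15 without MMS 2 and MMS 4), against 0.00091 over all genes. For 0 members were the groups free of overlap, as against 0.389% of all genes. In tissue samples of this kind, fewer cells of a type and less RNA per cell cannot be told apart.

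**Figure D1:**
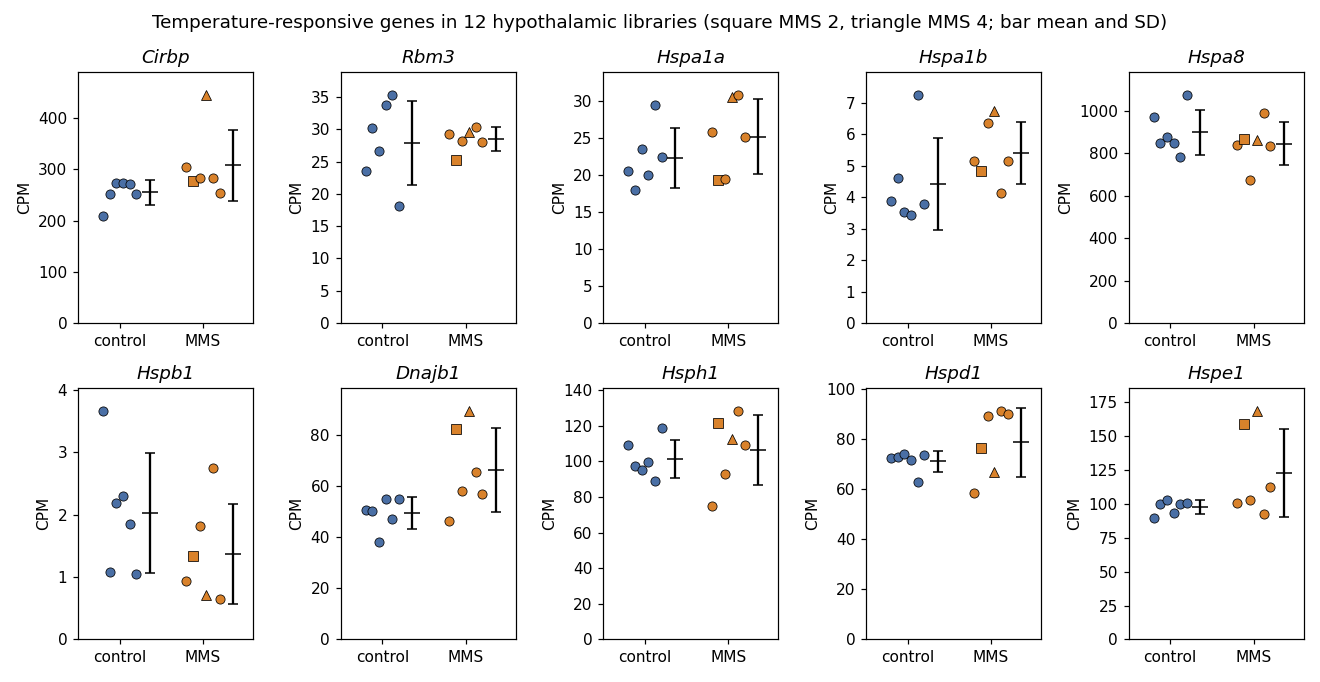
Level of each of the 10 genes in every library, in CPM on the vertical axis from 0, with controls in blue and MMS in orange (square MMS 2, triangle MMS 4) and the group mean with SD beside the points. Dnajb1 and Hspe1 are highest in MMS 2 and MMS 4, Cirbp is highest in MMS 4 (446 CPM), and the groups overlap in every panel.

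Cirbp, at 10:80165985-80172786 on the plus strand, was the more abundant of the cold-inducible pair. In controls it ran from 210 CPM (control 1) through a median of 261 CPM to 274 CPM. In MMS it ran from 254 CPM (MMS 6) through a median of 284 CPM to 446 CPM (MMS 4). All 5 MMS libraries other than MMS 6 lay above the highest control, although 4 of these lay between 277 and 304 CPM, and only MMS 4 was far above. The log2 fold change was 0.27 (SE 0.12, 95% interval 0.02 to 0.53, edgeR adjusted p = 0.543), a fold of 1.21. It was 0.15 without MMS 4 (adjusted p = 0.881) and 0.15 (95% interval -0.05 to 0.34) without MMS 2 and MMS 4, and the adjusted p ran from 0.322 to 0.964 over all settings tried.

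Rbm3, a small glycine-rich relative of Cirbp at X:8138975-8145880 on the minus strand, had nearly the same mean in both groups, 27.9 ± 6.49 CPM in controls and 28.4 ± 1.81 CPM in MMS (SD, n = 6 per group). Controls ranged from 18.1 CPM (control 6) to 35.3 CPM (control 5), with a median of 28.4 CPM, and enclosed all 6 MMS libraries, which ranged from 25.3 to 30.4 CPM with a median of 28.7 CPM. MMS 4, highest for Cirbp, had 29.6 CPM of Rbm3. On the log2 scale MMS differed from control by 0.029 (SE 0.15, edgeR adjusted p = 0.958), with a 95% interval of -0.29 to 0.35, or a fold of 0.818 to 1.27. It was 0.058 without MMS 2 and MMS 4. Its sign was reversed on leaving out control 1 (-0.016) or control 6 (-0.059). The antisense gene Rbm3os overlaps Rbm3 at its 5′ end and had 26 counts over all libraries against 1562 for Rbm3.

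Among the inducible HSP70 genes, Hspa1a (17:34969190-34972156, minus strand) gave 64 to 191 counts per library and Hspa1b (17:34956436-34959238, minus strand) 15 to 47. These intronless genes encode nearly the same protein, and 58.8% of the 50-base words of the Hspa1a transcript also stood in Hspa1b. In the last 300 bases, from which a 3′ library reads, 0 of 251 words were shared, so their reads can be told apart where they come from that end. Hspa1a ran from 17.9 to 29.5 CPM in controls (median 21.4 CPM, highest in control 5) and from 19.3 to 30.8 CPM in MMS (median 25.4 CPM). The highest MMS libraries were MMS 5 (30.8 CPM) and MMS 4 (30.5 CPM), while MMS 2 (19.3 CPM) was the lowest. Hspa1b ran from 3.44 to 7.25 CPM in controls (median 3.83 CPM) and from 4.12 to 6.74 CPM in MMS (median 5.15 CPM), and control 5 held its highest value. The log2 fold changes were 0.18 (SE 0.16, 95% interval -0.16 to 0.51, edgeR adjusted p = 0.727) for Hspa1a and 0.28 (SE 0.26, 95% interval -0.27 to 0.82, edgeR adjusted p = 0.741) for Hspa1b. With both rows summed the fit gave 0.19 on the log2 scale (SE 0.15, 95% interval -0.12 to 0.51, edgeR adjusted p = 0.679). Without MMS 2 and MMS 4, Hspa1a stood at 0.19 and Hspa1b at 0.21, and without control 5 alone at 0.28 and 0.50, all short of the threshold.

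Hspa8, the constitutive HSP70 that refolds and transports proteins in unstressed cells, lies at 9:40800984-40810087 on the plus strand. Its level was above that of 99.2% of the tested genes. It ranged from 782 to 1075 CPM in controls (median 861 CPM) and from 672 CPM (MMS 3) to 989 CPM in MMS (median 852 CPM), and it was the only tested member with a lower mean in MMS. The log2 fold change was -0.09 (SE 0.10, 95% interval -0.31 to 0.12, edgeR adjusted p = 0.786). It was -0.022 without control 6, the highest library, -0.033 without MMS 3, the lowest, and -0.10 without MMS 2 and MMS 4 (867 and 863 CPM), which lay inside the control range. Of the 50-base words in the last 300 bases of its transcript, 67.3% also stood in transcripts of 10 other genes, 7 of them in the count table with 9455 counts in all. Adding those rows to Hspa8 gave a log2 fold change of -0.08.

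Dnajb1, the HSP40 that passes substrates to HSP70 (8:83608193-83612653, plus strand), had the smallest p of the set. Together with HSP70 it is also known to restrain HSF1. It ranged from 38.3 CPM (control 3) to 55.2 CPM in controls, with a median of 50.7 CPM. In MMS it was 82.5 CPM in MMS 2 and 89.6 CPM in MMS 4. MMS 1 (46.4 CPM) fell inside the control range, and MMS 3 (58.1 CPM), MMS 5 (65.5 CPM) and MMS 6 (57.0 CPM) lay above it, so 5 of 6 MMS libraries exceeded every control. The mean was 49.6 ± 6.31 CPM in controls and 66.5 ± 16.5 CPM in MMS (SD, n = 6 per group). The log2 fold change was 0.43 (SE 0.15, 95% interval 0.13 to 0.74, edgeR adjusted p = 0.543), a fold of 1.35. Without MMS 2 and MMS 4 it was 0.20 (95% interval -0.05 to 0.46, edgeR adjusted p = 0.961), and with 1 library left out it ran from 0.33 to 0.53. The adjusted p ran from 0.264 to 0.961 over all settings tried.

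Hsph1, the HSP105 that releases nucleotide from HSP70 (5:149614287-149636376, minus strand), did not follow Dnajb1 in mean. It ranged from 88.9 to 119 CPM in controls and from 74.7 CPM (MMS 1) to 128 CPM (MMS 5) in MMS, with medians of 98.6 and 111 CPM. MMS 2 (121 CPM) and MMS 5 lay above all controls and MMS 1 below all controls, which is a wider spread in MMS on both sides. The log2 fold change was 0.07 (SE 0.12, 95% interval -0.19 to 0.33, edgeR adjusted p = 0.865). Single libraries moved it from 0.019 (without MMS 5) to 0.17 (without MMS 1), and it was 0.0033 without MMS 2 and MMS 4.

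**Figure D2:**
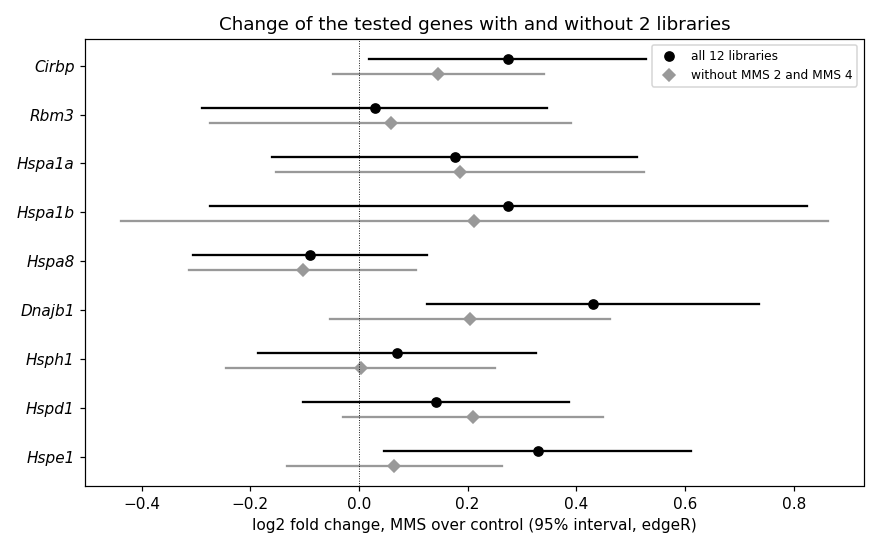
Log2 fold change of the 9 tested genes, MMS over control, on the horizontal axis with 95% intervals from edgeR, over all 12 libraries (black circles) and without MMS 2 and MMS 4 (grey diamonds). The intervals of Cirbp, Dnajb1 and Hspe1 lie above 0 in the first fit and reach below 0 in the second.

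The mitochondrial chaperonin is a barrel of HSP60 (Hspd1) closed by a lid of HSP10 (Hspe1), and its genes share the promoter shown above. They did not show the same pattern over the MMS libraries. Hspe1 (1:55088132-55091307, plus strand) was tightly placed in controls, from 90.0 to 103 CPM with a median of 99.98 CPM. In MMS it was 159 CPM in MMS 2 and 169 CPM in MMS 4, and between 93.0 and 112 CPM in the remaining 4, of which only MMS 6 (112 CPM) lay above all controls. Hspd1 (1:55077835-55088243, minus strand) ran from 62.8 to 74.1 CPM in controls, with a median of 72.6 CPM. Its highest MMS values were those of MMS 5 (91.2 CPM), MMS 6 (90.2 CPM) and MMS 3 (89.0 CPM), while MMS 2 (76.6 CPM) was just above the controls and MMS 4 (66.7 CPM) inside their range. The ratio of Hspe1 to Hspd1 was 2.08 in MMS 2 and 2.53 in MMS 4, against 1.24 to 1.59 in controls and 1.02 to 1.73 in the other MMS libraries.

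The log2 fold change of Hspe1 was 0.33 (SE 0.14, 95% interval 0.05 to 0.61, edgeR adjusted p = 0.543), with 3 of 6 MMS libraries above all controls. Without MMS 2 and MMS 4 it was 0.07 (95% interval -0.13 to 0.26, edgeR adjusted p = 0.965), and the adjusted p ran from 0.254 to 0.967 over all settings tried. That of Hspd1 was 0.14 (SE 0.12, 95% interval -0.10 to 0.39, edgeR adjusted p = 0.696), with 4 of 6 MMS libraries above all controls and 1 below, and 0.21 (95% interval -0.03 to 0.45) without MMS 2 and MMS 4. The ends from which their reads come lie outside the overlap of the genes. In the last 300 bases of Hspe1, 43.8% of the 50-base words stood also in transcripts of 4 other genes, but the 2 of these in the count table had 6 counts against 6071 for Hspe1.

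**Figure D3:**
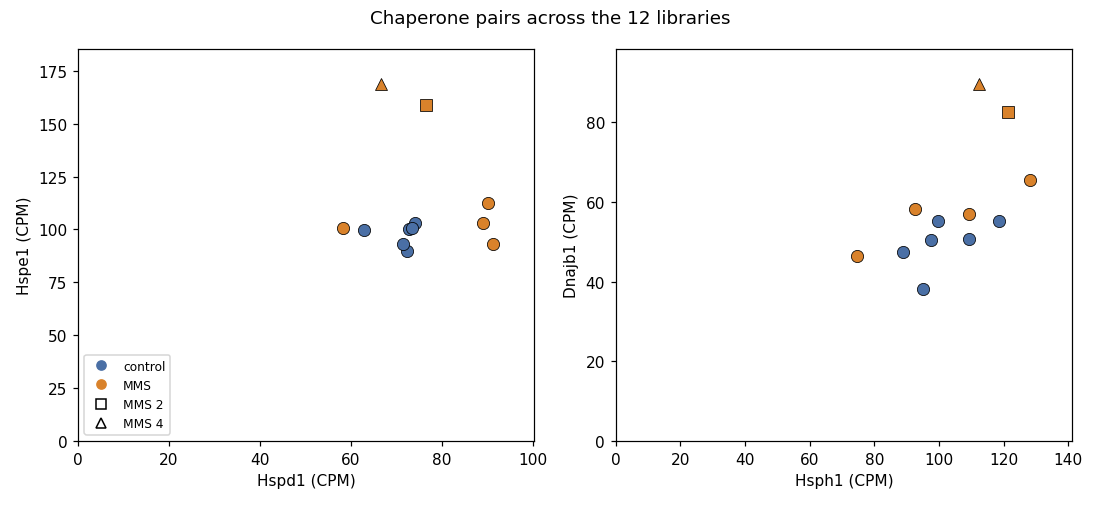
Level of Hspe1 against Hspd1 (left) and of Dnajb1 against Hsph1 (right), in CPM from 0 on both axes, with 1 point per library, controls in blue and MMS in orange. MMS 2 (square) and MMS 4 (triangle) have Hspe1 at 159 and 169 CPM with Hspd1 at 76.6 and 66.7 CPM, while the MMS libraries with the most Hspd1 have Hspe1 between 93.0 and 112 CPM.

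Hspb1, the small heat shock protein HSP27 (5:135887919-135889563, plus strand), was too low for the test, with 2 to 17 counts per library. It ranged from 1.05 to 3.66 CPM in controls (median 2.02 CPM) and from 0.644 to 2.75 CPM in MMS (median 1.14 CPM). The exact permutation test of its CPM, two-sided, gave p = 0.238, and the smallest value this design allows is 0.00216. Of the words in the last 300 bases, 19.1% also stood in its pseudogene Hsp25-ps1, which had 73 counts against 96 for Hspb1. With these rows summed the gene passed the count filter, and its log2 fold change was -0.44 (SE 0.34, 95% interval -1.14 to 0.26, edgeR adjusted p = 0.673). When MMS 2 and MMS 4 were left out, the Hspb1 row passed the filter on its own, at -0.34 (95% interval -1.35 to 0.68).

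**Figure D4:**
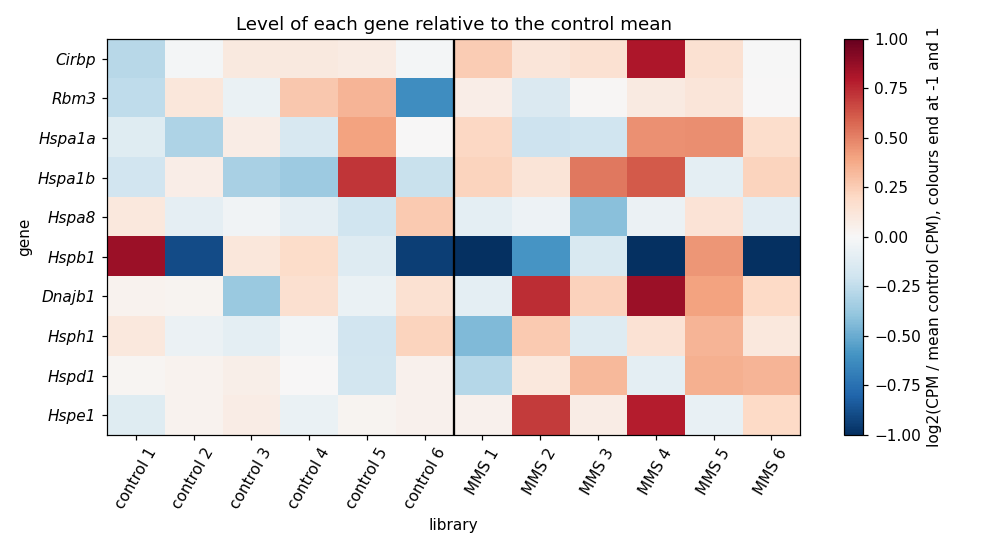
Log2 of the CPM of each gene over its mean in controls, with genes in rows, the 12 libraries in columns and colours from blue (lower) to red (higher), ending at -1 and 1. The reddest cells of Dnajb1 and Hspe1 stand in MMS 2 and MMS 4, that of Cirbp in MMS 4 and that of Hspa1b in control 5, whereas Hspb1 varies in both groups on few counts.

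The second comparison asked how the genes varied together between pups of a group. After the group mean was taken off, 6 pairs were compared. The main comparison was planned over all 12 libraries and is given last. The alternative over the 10 libraries other than MMS 2 and MMS 4, which form a cluster of their own, comes first. Over these 10 the highest correlation was that of Dnajb1 with Hsph1, at r = 0.73 (permutation p = 0.0243, adjusted 0.146) and rho = 0.72 (permutation p = 0.0354, adjusted 0.153). Hspa8 and Hsph1 gave r = 0.65 (permutation p = 0.0811, adjusted 0.243) and rho = 0.65 (permutation p = 0.0628, adjusted 0.153). When the pair of libraries most distant from the first gene's median was dropped, r became 0.80 (permutation p = 0.0699) and 0.68 (permutation p = 0.120) for these pairs. The cold-inducible pair, Cirbp and Rbm3, gave r = 0.46 (permutation p = 0.295, adjusted 0.590) and rho = 0.61 (permutation p = 0.0765, adjusted 0.153), with r = 0.46 after the same step (permutation p = 0.205). For Hspd1 and Hspe1 r was 0.045 (permutation p = 0.858, adjusted 0.858) and rho 0.20 (permutation p = 0.584, adjusted 0.585), and r was -0.0053 after the same step. Hspa8 and Dnajb1 gave r = 0.30 (permutation p = 0.430, adjusted 0.645) and rho = 0.31 (permutation p = 0.422, adjusted 0.585), with r = 0.35 after the same step. Hspa1a and Hspa1b gave r = 0.15 (permutation p = 0.679, adjusted 0.814) and rho = -0.21 (permutation p = 0.585, adjusted 0.585). Without control 5 and MMS 5, left out by the same step, r was -0.83 (permutation p = 0.0314, not adjusted). The sign of r thus rested on those libraries, whereas rho was already negative with them. None of the 6 pairs passed after adjustment over the 10 libraries. Over all 12, Hspa8 and Hsph1 passed by rank, with rho = 0.80 (permutation p = 0.0026, adjusted 0.0156), though not by r = 0.65 (permutation p = 0.0364, adjusted 0.109). Dnajb1 and Hsph1 then gave r = 0.70 (permutation p = 0.0342, adjusted 0.109) and rho = 0.62 (permutation p = 0.0518, adjusted 0.125). The other 4 pairs gave r of 0.31 (Cirbp and Rbm3), 0.29 (Hspa8 and Dnajb1), 0.28 (Hspa1a and Hspa1b) and -0.31 (Hspd1 and Hspe1) over 12 libraries, none past adjustment.

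The biological coefficient of variation, the spread that counting error does not account for, was lowest for Hspd1 (14.5%) and Hspa8 (14.7%) and highest for the scarce Hspa1b (25.1%). This spread falls with level. Against the value fitted at their own level, Dnajb1 (17.7% against 16.5%) and Hspe1 (17.2% against 16.4%) lay above, and the other 7 tested members below. The genes closest to Hspa8 in pattern were Chd5 (r = 0.94), Ppp5c (r = 0.92) and Nucks1 (r = 0.91), and those closest to Cirbp were Sos2 (r = 0.87), Scand1 (r = 0.86) and Ctsl (r = 0.85), by group-centred log2 CPM over 12 libraries among 7383 genes with at least 20 CPM. Without MMS 2 and MMS 4, r was 0.95, 0.98 and 0.94 for the first 3 and 0.61, 0.48 and 0.70 for the others. These are the highest of many correlations and are given as a description.

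The third comparison placed the set beside other genes of the same systems. Each count of genes at an unadjusted p under 0.05 reads against 9.08% of all genes in either direction and 4.68% with higher levels, and without MMS 2 and MMS 4 against 5.03%. Of 12 tested HSP70, HSP90 and HSP110 genes and heat shock factors (15 listed), 0 passed the threshold in edgeR, 3 were lower in MMS at an unadjusted p under 0.05 and 0 were higher, and the median log2 fold change was 0.02. The 3 were Hsf1, which encodes the heat shock factor itself (14.3 ± 3.96 CPM in controls and 9.998 ± 1.91 CPM in MMS, log2 fold change -0.50, SE 0.20), the testis-rich HSP70 Hspa2 (-0.59, SE 0.24) and Hsp90ab1, the constitutive HSP90 (-0.27, SE 0.12). Hsp90aa1, the inducible HSP90, stood at 0.17 (SE 0.10). Hsp90ab1 was 597 CPM in MMS 2 and 610 CPM in MMS 4 against 868 to 1062 CPM in controls, and its log2 fold change without these libraries was -0.10, whereas that of Hsf1 was -0.47. In the same fit Hspa2 stood at -0.33 and Hsp90aa1 at 0.09. Hsf1 was then the 1 gene of the list at an unadjusted p under 0.05, and the median was 0.02. Adjusted p-values of these 4 genes in edgeR were 0.543 to 0.592.

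Of 23 co-chaperones, all tested, 0 passed the threshold in edgeR, and at an unadjusted p under 0.05 there were 1 higher and 2 lower in MMS, with a median of -0.05. Bag2, a nucleotide exchange factor that holds back the ubiquitin ligase CHIP, stood at 0.49 (SE 0.17), with 13.9 ± 2.58 CPM in controls and 19.5 ± 3.32 CPM in MMS. The HSP40 genes Dnaja4 and Dnajc7 stood at -0.49 (SE 0.19) and -0.88 (SE 0.39), and Bag3, a partner of HSP70 in autophagy that HSF1 induces, at -0.56 (SE 0.27). Dnajc7 was 40.8 CPM in MMS 2 and 39.9 CPM in MMS 4, against 135 to 248 CPM in controls. Without these libraries the median had the opposite sign, 0.05, and 4 genes were at an unadjusted p under 0.05, Bag2, Dnaja4 and, named after their values were seen, Hspbp1 (0.24) and Cacybp (-0.19). Bag2 then stood at 0.49, Dnaja4 at -0.52, Dnajc7 at -0.50 and Bag3 at -0.31. Adjusted p-values in edgeR were 0.543 to 0.551 for these 4 genes.

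The genes listed as small heat shock proteins had 4 of 8 tested, 0 past the threshold in edgeR and 0 at an unadjusted p under 0.05, with a median of -0.23. Hspb8, which works with Bag3, stood at -0.64 (SE 0.31), Hspb6 at -0.39 (SE 0.21), the lens and glial crystallin Cryab at -0.08 (SE 0.22) and Hspb11 at 0.07 (SE 0.25). Hspb8 was 8.87 CPM in MMS 2 and 7.98 CPM in MMS 4 against 20.4 to 44.6 CPM in controls, and it stood at -0.26 without these libraries. Hspb11, listed by its name, went the other way, at 20.95 CPM in MMS 2 and 15.8 CPM in MMS 4. It was at most 12.85 CPM in controls and stood at -0.43 without these libraries. The list then had a median of -0.22 and still 0 genes at an unadjusted p under 0.05.

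Among 13 mitochondrial chaperones and proteases, all tested, 0 passed the threshold in edgeR, 3 were higher at an unadjusted p under 0.05 and 0 lower, with a median of 0.12. They were the mitochondrial HSP40 Dnaja3 (0.44, SE 0.15), the inner membrane protease subunit Afg3l2 (0.41, SE 0.14) and the mitochondrial HSP70 Hspa9 (0.24, SE 0.11). The matrix protease Lonp1 stood at -0.22 (SE 0.11). The median was -0.04 without MMS 2 and MMS 4, and none of these 3 was then at an unadjusted p under 0.05, with Dnaja3 at 0.27, Afg3l2 at 0.30 and Hspa9 at 0.16. The 1 gene of the list that was, named after its values were seen, was the mitochondrial HSP90 Trap1 (-0.35, against 0.02 over all libraries). The TRiC chaperonin, which folds actin and tubulin in the cytosol, had 8 of 8 subunits tested, 0 past the threshold in edgeR, 0 at an unadjusted p under 0.05 and a median of 0.02. Its subunits with the smallest p stood on both sides of 0, Cct2 at 0.22 (SE 0.12), Cct7 at -0.28 (SE 0.15), Cct8 at -0.23 (SE 0.14) and Cct3 at 0.13 (SE 0.11). The median of the subunits was -0.01 without MMS 2 and MMS 4, with 0 at an unadjusted p under 0.05. Cct2 then stood at 0.08, Cct7 at -0.05, Cct8 at -0.04 and Cct3 at 0.01.

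Beside Cirbp and Rbm3, 12 of 13 cold-shock-domain and related RNA-binding genes were tested. In edgeR 0 passed the threshold and 0 reached an unadjusted p under 0.05, with 10 higher, 2 lower and a median of 0.09. The splicing regulators Rbm10, Srsf5 and Rbm5 stood at -0.34 (SE 0.17), 0.24 (SE 0.13) and 0.22 (SE 0.15), and Rbmxl1 at -0.29 (SE 0.23). The median was 0.06 without MMS 2 and MMS 4, with 1 gene at an unadjusted p under 0.05, Rbmx (0.49, named after its values were seen). Rbm10 then stood at -0.23, Srsf5 at 0.05, Rbm5 at 0.05 and Rbmxl1 at -0.12. Of 18 temperature-sensing channels and genes of preoptic warm-sensitive neurons, 10 were tested, 0 passed the threshold in edgeR and 1 was lower at an unadjusted p under 0.05, with a median of -0.04. That gene was Qrfp, a neuropeptide gene of the neurons that lower body temperature (5.76 ± 3.04 CPM in controls and 3.45 ± 1.39 CPM in MMS, SD, n = 6 per group, log2 fold change -0.79, SE 0.36). Bdnf stood at -0.28 (SE 0.16), the heat-sensing channel gene Trpm2 at -0.42 (SE 0.26) and Trpm3 at 0.46 (SE 0.36). The median was -0.16 without MMS 2 and MMS 4, and 0 genes were then at an unadjusted p under 0.05, with Qrfp at -0.52.

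Of 12 thermogenic and thyrotropic genes, 10 were tested, 0 passed the threshold in edgeR, and at an unadjusted p under 0.05 there were 1 higher and 1 lower, with a median of 0.07. Ppargc1a, the coactivator of mitochondrial biogenesis, stood at 0.40 (SE 0.16), with 69.6 CPM in MMS 2 and 74.0 CPM in MMS 4 against 36.1 to 44.2 CPM in controls, and at 0.11 without these libraries. Adrb1, the beta-adrenergic receptor, stood at -0.65 (SE 0.30), the receptor of thyrotropin-releasing hormone Trhr at -0.33 (SE 0.16) and the melanocortin receptor Mc4r at 0.34 (SE 0.32). Leaving out MMS 2 and MMS 4 gave a median of 0.15 and 0 genes at an unadjusted p under 0.05. Adrb1 then stood at -0.71, Trhr at -0.28 and Mc4r at 0.39.

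**Figure D5:**
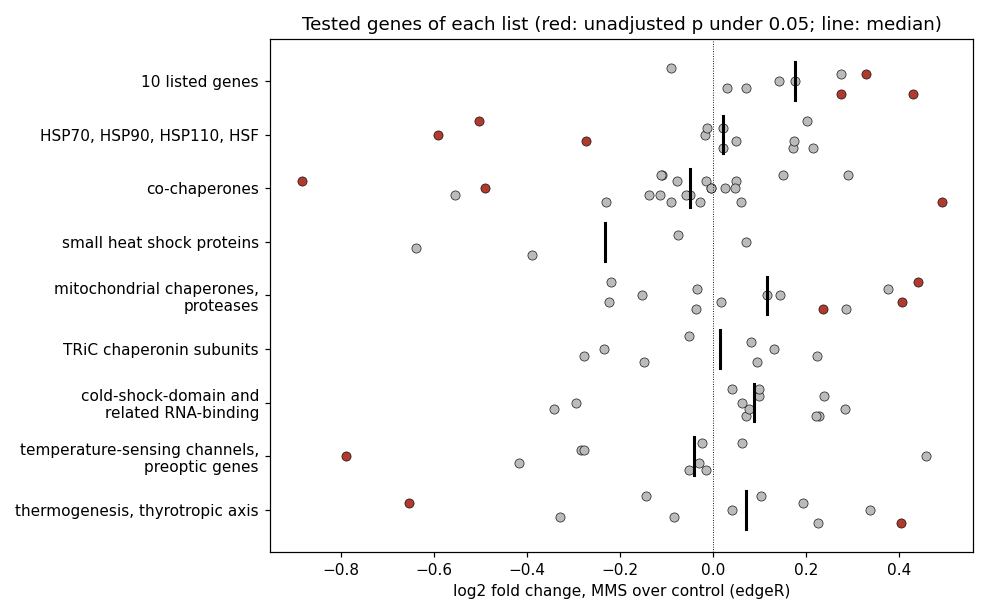
Log2 fold change of every tested gene of each list, MMS over control in edgeR, on the horizontal axis, with 1 row per list, red for an unadjusted p under 0.05 and a black line at the median. The 9 tested members have a median of 0.18 and the 4 genes listed as small heat shock proteins one of -0.23, and red genes lie on both sides of 0.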

How the data were processed

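Hypothalamic RNA of 12 male pups was made into libraries with the QuantSeq 3′ kit, whose reads start near the poly(A) tail, and sequenced on the Ion Proton. The authors aligned reads to mm10 in Torrent Suite and deposited raw counts per gene, not normalised or pooled. For the counting tool, its strand setting and its handling of reads with several matches, no setting is stated in the sources used here.

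Libraries were grouped by title. Per-gene tests were quasi-likelihood fits in edgeR 4.0.16 (R 4.3.3, TMM scaling, robust, default filter at 10 counts and a total of 15), two-sided, with Benjamini-Hochberg adjustment over 13104 genes and a threshold of 0.05. Standard errors were derived from the F statistic. CPM used the same scaling. A level in CPM is not divided by length, as 3′ reads do not grow with it. Within-group pairs of libraries differed beyond sampling noise (chi-square per degree of freedom 4.04 to 31.5), so each counted once. The labels do not give the litter, and tests treat pups as independent. Alternatives used DESeq2 1.42.0, limma 3.58.1 and sva 3.50.0, other scalings and filters, a replicate block and left-out libraries. Correlations used 100000 permutations within groups. Coordinates (1-based) and transcripts came from GENCODE M21, of the same build, and promoters from RefSeq. The code was tested on simulated data.

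The members and gene lists were chosen with earlier results of these data known. All members are named. Of every other list the 4 genes with the smallest p are named, as are the 3 genes closest in pattern to Cirbp and to Hspa8. The sums with pseudogene rows were added after the data were seen.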

Additional observations from a re-analysis of the deposited data

Results flagged for a closer look

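Of 20 sets of 6 values, 1 per gene and group, 4 had an extreme value by Dixon's criterion, which chance alone meets in about 1 set of 20. For Cirbp this was MMS 4 at 446 CPM, where the next MMS library had 304 CPM, and control 1 at 210 CPM, below the next control at 252 CPM. For Hspa1b it was control 5 at 7.25 CPM, above the next control at 4.62 CPM. For Hspd1 it was control 5 at 62.8 CPM, below the next control at 71.5 CPM.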

How the results depend on the processing

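The number of members past the threshold was 0 in edgeR, in the 10 other settings and in the 12 fits that left out 1 library. Members at an unadjusted p under 0.05 numbered 3, but 1 with quality weights in limma-voom (Dnajb1), 0 with 1 surrogate variable and 0 without MMS 2 and MMS 4, and 1 to 3 on leaving out 1 library, with 1 (Dnajb1) without control 1 and without MMS 4. Over all genes the number past the threshold was 0 in edgeR, 7 in DESeq2, 1 without a count filter, 1 with the replicate block, 4 with the surrogate variable, 5 without MMS 2 and MMS 4, and 0 to 1 on leaving out 1 library. The sign of Rbm3 was reversed in the latter, where it ran from -0.059 to 0.12. With 1 surrogate variable Hspe1 stood at 0.06, Cirbp at 0.15 and Dnajb1 at 0.22. Hspa8 and Hsph1 passed adjustment by rho over 12 libraries (0.80) and not without MMS 2 and MMS 4 (0.65). Without MMS 2 and MMS 4, r between Hspd1 and Hspe1 was 0.045 where all 12 libraries, pooled across clusters, gave -0.31. Replicate numbers were not taken as pairs, as no label ties them to litters. Deviations of same-numbered libraries correlated at -0.05 to 0.12, and 2 of 6 controls correlated best with their own number. These values cannot decide whether the numbers mark litters, as MMS 2 and MMS 4 weigh heavily on the deviations within MMS. With the replicate block the same 3 members were at an unadjusted p under 0.05. Depth limits Hspb1 most, at 2 to 17 counts.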

Other observations

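Chaperone genes outside the 10 differed in direction within MMS 2 and MMS 4, a pattern noticed after the values were seen and not tested. The genes below are among those with the smallest p of their lists. These libraries also lay apart on the first principal component. The share of all genes outside every control in both libraries was not counted, so the pattern is not read as particular to chaperones. Hsp90ab1 (597 and 610 CPM), Cct7 (353 and 374 CPM), Cct8 (215 and 275 CPM), Dnajc7 (40.8 and 39.9 CPM) and Hspb8 (8.87 and 7.98 CPM) lay below all controls in both libraries, whose lowest values were 868, 611, 357, 135 and 20.4 CPM. Hsp90aa1 (348 and 333 CPM), Hspa9 (198 and 188 CPM) and Cct2 (225 and 262 CPM) lay above all controls, whose highest values were 318, 178 and 190 CPM. These are examples. Among the named genes of the chaperone lists, Hspa2, Dnaja4, Hspb6 and Lonp1 also lay below all controls in both libraries. Cct3, Dnaja3, Afg3l2 and Hspb11 also lay above all controls in both. Within HSP90 and within TRiC, members of the same family or complex thus stood on opposite sides of the controls in the same libraries.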
